A study of Mus musculus with 36 samples.

Results

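Gene expression in the hippocampus of Dicer conditional knock-out (cKO) mice was compared with that of control mice 4 weeks after the start of treatment. The comparison comprised 6 of the 36 arrays of the series, selected by their sample labels, with 3 cKO and 3 control arrays that each held the RNA of 1 animal. All 6 animals carried the Camk2a-CreERT2 transgene and 2 floxed Dicer alleles (Cre+;Dicerlox/lox) on a C57BL/6J background. At 8 weeks of age, cKO animals received 10 mg tamoxifen in total, and control animals received the sunflower oil and ethanol vehicle without tamoxifen. Since every cKO animal and no control animal received tamoxifen, the loss of Dicer and the drug itself cannot be told apart on these arrays. The Camk2a promoter drives the recombinase in excitatory forebrain neurons, and the hippocampi, dissected from sagittal slices, also contained interneurons, glia, vessels and other cells without it. The Affymetrix values are log2 intensities, so that a difference of 1 is a doubling, and differences are given as cKO minus control.

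Dicer is the ribonuclease that cuts microRNA (miRNA) precursors into mature miRNAs, which guide Argonaute proteins to messenger RNAs with matching seed sites and thereby lower their stability and translation. Direct miRNA targets are therefore candidates for higher levels after the loss of Dicer, whereas mature miRNAs that are already bound to Argonaute proteins can persist in neurons for some time. The hippocampus is a cortical structure for learning and spatial memory, built of the pyramidal neurons of the CA fields and the granule neurons of the dentate gyrus. It borders on the ependyma and choroid plexus of the lateral ventricle, and on the leptomeninges of the hippocampal fissure.

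Values of some hippocampal markers are given to describe the labelled tissue. They were picked after the values were seen and were not compared with other tissues, so they are not a test of its identity. Of the longer marker lists used below, 12 of 18 dentate granule and 10 of 12 CA3 genes were measured. On the 6 arrays, the values of Wfs1, a gene of CA1 pyramidal neurons, lay between 8.65 and 9.16. Those of the transcription factor Zbtb20 lay between 7.51 and 8.59 and those of the calcium sensor Hpca between 8.11 and 8.28. The CA3 gene Grik4 was between 6.23 and 6.56 and the dentate gene C1ql2 between 5.96 and 6.71. All of these values were above the filter of 4.6, which is not a present call, and intensities of different genes are not compared. Ttr, a gene of the adjacent choroid plexus, was between 7.47 and 9.23.

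The 6 arrays were similar but not equal. The mean correlation of an array with the other 5 lay between 0.987 and 0.989 on 5 arrays and was 0.981 for cKO replicate 3. A list of nuclear-retained and intron-rich transcripts had a median deviation of -0.65 on that array, against -0.02 to 0.15 on the others. Control replicate 2 stood apart through high microglia genes, with a median deviation of 0.79 against -0.20 to -0.07 on the other 5 arrays. The 3′ minus 5′ signal of the actin control probe sets, a sign of RNA degradation, was 0.99, 0.81 and 0.96 on the cKO arrays and 0.90, 0.77 and 0.77 on the control arrays. This difference of 0.11 had p = 0.2 in a two-sided exact permutation test, which cannot go below 0.1 with 3 against 3 arrays, and the Gapdh probe sets differed by 0.038 (exact permutation p = 0.4). Results that rest on these 2 arrays are given with and without them, and leaving out both at once was chosen after seeing the data.

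The targeted gene was read by 2 probe sets. With the dimmer, Dicer1 was at 6.68, 6.41 and 6.49 in the cKO and at 6.61, 6.54 and 6.64 in the control hippocampus. The groups overlapped, and the difference of -0.07 (SE 0.10, limma adjusted p = 0.968) had a 95% interval from -0.29 to 0.15. With the brighter probe set it was at 8.59, 8.44 and 8.57 against 8.44, 8.47 and 8.56, a difference of 0.04. No source used here tells where these probes lie relative to the floxed exon, so neither probe set is a test of the recombination. The paper itself shows the recombined allele by PCR in the hippocampus of cKO mice. By quantitative RT-PCR it reports that Dicer messenger RNA seemed lower there, which these probe sets did not show. Camk2a, the kinase gene whose promoter drives the recombinase, was at 4.95, 4.995 and 4.18 against 5.51, 5.07 and 5.47 with its most variable probe set (-0.64, SE 0.42, adjusted p = 0.852). Its brightest probe set gave a difference of 0.08 in the other direction, with values of 10.42, 10.32 and 9.78 against 10.35, 9.97 and 9.97.

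No gene passed the threshold. Of 14201 genes tested with limma, 0 were called at an FDR of 15% (0%), and the lowest adjusted p was 0.613. At an unadjusted p under 0.05 there were 900 genes, 297 higher (2.09% of the genes tested) and 603 lower (4.25%) in the cKO. The methods' t-test, which the study names for group comparisons in general while limma was used for its arrays, called 0 as well and had 563 genes at an unadjusted p under 0.05. All 3 cKO arrays lay above all 3 control arrays for 726 genes (5.11%), and below them for 702 genes (4.94%).

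The data bound most differences. The 95% interval of the difference lay within 0.5 of 0 for 79.8% of the genes and within 1 of 0 for 97.2%. The median standard error was 0.12. The median difference over all genes was 0.0021, with 7202 genes higher and 6999 lower. Large differences without overlap were unevenly divided, with 7 genes higher and 139 lower by more than 0.5. Of the 702 non-overlapping lower genes, 399 had their lowest value on cKO replicate 3. When this array was left out, 222 of the 603 lower genes remained at an unadjusted p under 0.05, and 187 of the 297 higher genes. Without cKO replicate 3 and control replicate 2 there were 261 higher and 407 lower genes. Without cKO replicate 1 there were 400 and 1056, and in that setting alone among those run limma called genes, the 2 genes Cp and Slc6a4.

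**Figure D1:**
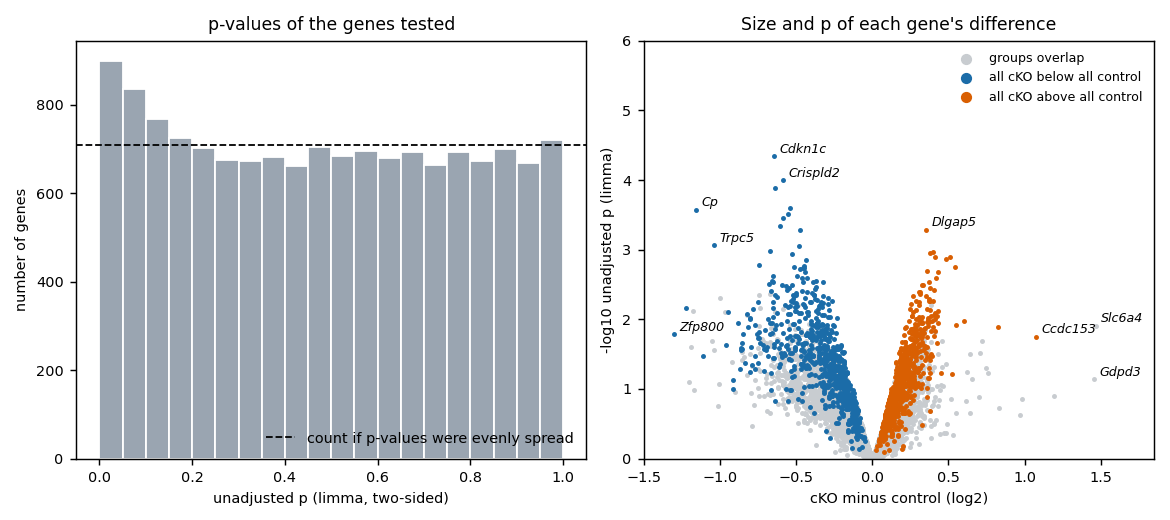
Left, the number of genes in each range of the unadjusted limma p, with a dashed line at the count an even spread would give; right, for each gene the cKO minus control difference in log2 units against -log10 of p, coloured by whether the 3 cKO and 3 control arrays overlap. The lowest bin holds 900 genes against 710.05 for an even spread, and large non-overlapping differences are mostly on the lower side.

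The genes with the lowest p among those lower in the cKO included a cell cycle inhibitor, a secreted protein and a lipid receptor, none of which passed the calling threshold. Cdkn1c encodes the cyclin-dependent kinase inhibitor p57, which holds stem cells in quiescence. It was at 6.69, 6.59 and 6.57 in the cKO and at 7.48, 7.10 and 7.22 in the control hippocampus. The cKO values lay close together below every control value, at 0.638 of the control level (difference -0.65, SE 0.10, adjusted p = 0.613). Over 24 alternative settings its difference stayed between -0.73 and -0.54, and the lowest adjusted p was 0.173. Crispld2, a secreted lipopolysaccharide-binding protein, was at 7.45, 7.40 and 7.39 against 8.03, 7.78 and 8.18 (-0.58, SE 0.10, adjusted p = 0.613). Again the 3 cKO arrays were almost equal, and the control arrays were higher and more spread. Ppara, the nuclear receptor that switches on fatty acid oxidation, was at 5.56, 5.71 and 5.26 against 6.09, 6.14 and 6.22 (-0.64, SE 0.12, adjusted p = 0.613). Here the control arrays were the tighter group and cKO replicate 3 was the lowest.

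The next genes had larger differences with more spread. Cp, ceruloplasmin, the copper-carrying ferroxidase, was at 4.59, 4.02 and 3.42 against 5.40, 4.93 and 5.18 (-1.16, SE 0.23, adjusted p = 0.71), and its 7 probe sets above the filter were all lower in the cKO, the brightest by -0.20. All 3 cKO values of the probe set used were below the filter of 4.6, and for the other 6 probe sets the groups overlapped. Trpc5, a calcium-permeable cation channel of pyramidal neurons, was at 5.80, 5.30 and 5.30 against 6.20, 6.37 and 6.95 (-1.04, SE 0.24, adjusted p = 0.772). It is read by 1 probe set, and the difference lay between -1.21 and -0.82 over the alternatives. Tgm2, the enzyme transglutaminase 2, was at 7.24, 7.58 and 7.37 against 7.85, 7.71 and 8.07 (-0.48, SE 0.11), and its 5 probe sets were all lower in the cKO.

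The other 6 of the 12 lower genes were Zfp266 (-0.54), Minar1 (-0.55), the purine synthesis enzyme gene Atic (-0.59), the kinase gene Stk26 (-0.60), the cyclin gene Ccny (-0.47) and Mtss1 (-0.67), none of which overlapped between the groups. Several depended on the probe set chosen for the gene. With the brightest probe set in place of the most variable one, the differences of Zfp266, Minar1, Atic, Ccny and Mtss1 were 0.0012, 0.20, 0.04, 0.01 and 0.03, that is above 0. Of the 12 lower genes, 10 have several probe sets, and in 3 of these another probe set also had groups that did not overlap in the same direction. Ccny is among the 3, but a further probe set of it had groups apart in the other direction (0.13), and only 2 of its 5 probe sets were lower. Intensities were below the median of the genes tested for 8 of the 12 lower genes.

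The 12 genes of lowest p on the higher side had smaller differences, between 0.33 and 0.54, and all had intensities below the median of the genes tested. Dlgap5, a mitotic spindle gene, was at 4.96, 5.01 and 4.90 against 4.66, 4.53 and 4.63 (0.35, SE 0.07, adjusted p = 0.747). The groups were narrow and did not overlap, but the values are close to the filter of 4.6. Nt5c2, a cytosolic purine nucleotidase gene, was at 6.14, 6.10 and 6.25 against 5.86, 5.66 and 5.77 (0.40, SE 0.09, adjusted p = 0.772). Kcnh8, a voltage-gated potassium channel gene, was at 5.88, 5.93 and 5.63 against 5.33, 5.45 and 5.43 (0.41). In both genes each cKO array exceeded each control array. Drc3 and Ak7, which belong to the machinery of motile cilia, differed by 0.43 and 0.42, and the others were Dbil5 (0.38), 4833439L19Rik (0.51), Il18rap (0.48), Neu2 (0.54), Muc20 (0.36), Gm1123 (0.37) and Gm34703 (0.33). Of these 12 genes, 8 are read by a single probe set. The brightest probe set of each of the other 4, Nt5c2, 4833439L19Rik, Il18rap and Muc20, was another one, with differences of 0.02, 0.04, 0.15 and -0.02.

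**Figure D2:**
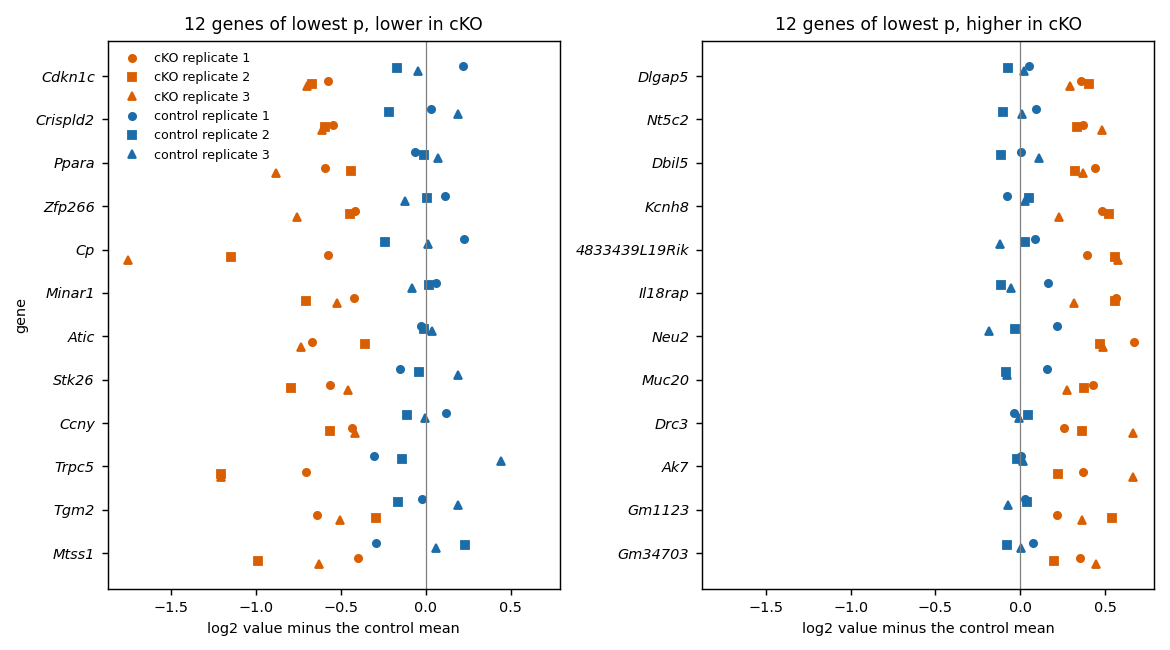
The log2 value on each array minus the mean of the 3 control arrays, for the 12 genes of lowest p lower in the cKO (left) and the 12 higher in the cKO (right); circles, squares and triangles are replicates 1, 2 and 3. The groups do not overlap for any of these genes, and the lower side reaches larger differences (Cp, -1.16) than the higher side (Neu2, 0.54).

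By size, the largest differences without overlap on the lower side were graded over the cKO arrays. Zfp800, a zinc finger gene, was at 7.40, 6.59 and 4.85 against 7.51, 7.45 and 7.77 (-1.30). Heatr6 was at 6.57, 6.16 and 4.80 against 6.99, 7.16 and 7.06 (-1.23). Krit1, a gene of endothelial junctions, was at 7.13, 6.60 and 5.26 against 7.52, 7.40 and 7.41 (-1.11). In each of the 3 genes cKO replicate 1 was near the control arrays and cKO replicate 3 was far below them. Other probe sets of these genes differed by less. The brightest of Heatr6 differed by -0.06, with overlap, and its other 3 by -0.13 to 0.08. For Zfp800 the other 4 differed by -0.78, -0.47, -0.21 and 0.24, the first 2 without overlap, and the median of its probe sets gave -0.10. For Krit1 they differed by -0.44, without overlap, and by -0.25, -0.15 and 0.09. Gad2, the smaller glutamate decarboxylase of interneurons, showed the same order with 8.47, 7.97 and 6.61 against 8.57, 8.55 and 8.81 (-0.96), whereas its other probe set differed by -0.01.

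On the higher side the largest differences without overlap included genes of cilia. Ccdc153, a gene of motile cilia, was at 5.85, 6.16 and 6.77 against 5.60, 5.51 and 4.44 (1.08, SE 0.39, adjusted p = 0.772). The gap between the lowest cKO and the highest control array was narrow, and control replicate 3 was far below the rest. Calml4, which choroid plexus epithelium expresses, was at 4.82, 5.05 and 5.48 against 4.51, 4.12 and 4.24 (0.83). Its control values were all below the filter of 4.6 and its cKO values all above it, so the size of this difference is uncertain. Iqca was at 5.60, 5.87 and 6.00 against 5.55, 5.29 and 4.99 (0.55). Erich6 differed by 0.61, and Enkur, a gene of sperm and motile cilia, by 0.52. The control values of Enkur were also all below the filter. Neu2 completed the 6 largest.

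Among all genes the largest difference was that of Slc6a4, the serotonin transporter of raphe neurons, which is named here because of its value. It was at 4.82, 6.53 and 7.66 in the cKO and at 4.83, 4.72 and 5.05 in the control hippocampus. High values were found on cKO replicates 2 and 3 only, and cKO replicate 1 lay among the controls, so that the difference of 1.47 (SE 0.50) had a limma adjusted p of 0.772. Without cKO replicate 1 the difference was 2.22 (SE 0.28) and the adjusted p was 0.0601, and in the same setting Cp had a difference of -1.45 with an adjusted p of 0.0601. Gdpd3, a glycerophosphodiester phosphodiesterase gene that was also picked by its value, had the same division, with 5.02, 7.43 and 7.06 against 5.10, 4.95 and 5.09 (1.46, SE 0.74).

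The question of whether miRNA targets were relieved at this time was addressed with 36 reported targets of neuronal miRNAs, of which 31 were measured. Of these, 10 were higher and 21 lower in the cKO, with a median difference of -0.08 against 0.0021 for all genes. Groups that did not overlap were found for 0 of the 31 on the higher side and for 5 on the lower side (5.11% and 4.94% of all genes), and 0 were higher and 5 lower at an unadjusted p under 0.05, where all genes had 2.09% and 4.25%. The median lay between -0.09 and -0.02 over 24 alternatives. The following mature sequences, from RefSeq on mouse build GRCm38.p6, are of 6 miRNAs with a known target in the list and are shown to make clear which seed sites would lose their partner. Bases 2 to 8, the seed, are in capitals, and the 6 seeds differ from each other.
mmu-miR-9-5p: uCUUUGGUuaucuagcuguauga
mmu-miR-132-3p: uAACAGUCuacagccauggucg
mmu-miR-134-5p: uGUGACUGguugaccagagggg
mmu-miR-138-5p: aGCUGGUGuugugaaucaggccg
mmu-miR-34a-5p: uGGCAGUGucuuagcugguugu
mmu-let-7a-5p: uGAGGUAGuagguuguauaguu

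These miRNAs are encoded at chr3:88215613-88215635 (+), chr13:83738821-83738843 (+) and chr7:79505279-79505301 (+) for miR-9, at chr11:75173723-75173744 (+) for miR-132, at chr12:109734145-109734166 (+) for miR-134, at chr9:122682898-122682920 (+) and chr8:94324312-94324334 (+) for miR-138, at chr4:150068473-150068494 (+) for miR-34a and at chr13:48538239-48538260 (-) for let-7a. The arrays read messenger RNAs and not the mature miRNAs, so the levels of these miRNAs were not measured. Rest, the repressor of neuronal genes and a miR-9 target, had the lowest p of the list, with 6.03, 5.84 and 5.84 in the cKO against 6.35, 6.45 and 6.30 in the control hippocampus. All 3 cKO arrays were lower (-0.46, SE 0.13, adjusted p = 0.772), which is the direction opposite to relief, and at 8 weeks the difference was 0.27.

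For the targets of the other 5 miRNAs, chosen after their values were seen, the groups overlapped. Arhgap32, a target of miR-132, was at 7.12, 6.71 and 5.82 against 7.12, 7.18 and 7.36 (-0.67). Limk1, the actin-regulating kinase targeted by miR-134 in dendrites, was at 8.62, 8.57 and 8.18 against 8.28, 8.58 and 8.24 (0.09, 95% interval -0.34 to 0.52). Lypla1, the depalmitoylating enzyme APT1 and target of miR-138, was at 4.89, 4.72 and 5.16 against 4.85, 4.83 and 4.59 (0.17, 95% interval -0.14 to 0.48). None of these targets was higher on all cKO arrays. Sirt1, the deacetylase targeted by miR-34a, was at 6.98, 6.93 and 6.98 against 6.91, 6.92 and 6.94 (0.04, 95% interval -0.16 to 0.25), the narrowest interval of the 5. Hmga2, the chromatin protein targeted by let-7, was at 4.95, 5.24 and 4.44 against 5.32, 4.97 and 5.03 (-0.23).

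The other 4 targets without overlap were also lower. Sox9, a glial transcription factor and target of miR-124, was at 6.95, 6.92 and 6.97 against 7.07, 7.44 and 7.33 (-0.34). Jag1, a ligand of Notch receptors, was at 4.79, 4.88 and 4.68 against 5.02, 5.19 and 5.12 (-0.33). Lamc1, a laminin chain, was at 6.54, 6.61 and 6.82 against 6.96, 6.93 and 6.91 (-0.28), and Ctdsp1, a phosphatase of the Rest complex named to complete the count, differed by -0.09. Sox9 and Jag1 are expressed by glia and vessel cells more than by neurons.

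**Figure D3:**
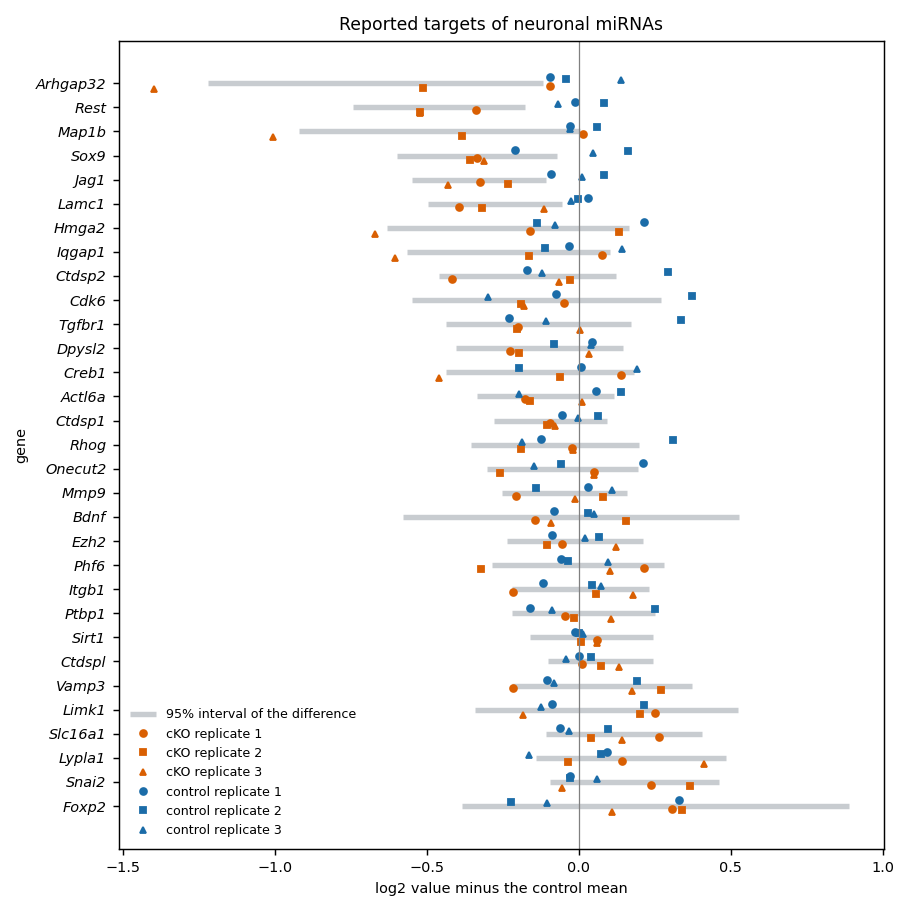
The 31 measured targets of neuronal miRNAs, ordered by their difference, with the log2 value on each array minus the control mean; grey bars are the 95% intervals of the cKO minus control difference. Rest, Sox9, Jag1, Lamc1 and Ctdsp1 have all 3 cKO arrays below all control arrays, and no target has all 3 above.

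The proteins that make and use miRNAs form a list of 20 genes, of which 18 were measured, 7 higher and 11 lower with a median difference of -0.05. At an unadjusted p under 0.05, 1 was higher and 3 were lower, where all genes had 2.09% and 4.25%. Drosha, the nuclear ribonuclease that acts before Dicer, was at 9.61, 9.46 and 9.63 against 9.44, 9.23 and 9.26 (0.26, SE 0.09, adjusted p = 0.772). Every cKO array was above every control array, although the median of its probe sets gave -0.03. Ago3, an Argonaute protein gene, was at 7.09, 6.91 and 6.17 against 7.27, 7.35 and 7.23 (-0.56, SE 0.19). Its other probe sets differed by 0.06, -0.02, -0.21 and -0.06, all with overlap. Tnrc6b, an Argonaute partner in silencing, was at 7.89, 7.86 and 7.13 against 8.02, 8.12 and 8.11 (-0.45), and Adar, the editing deaminase, differed by -0.39 with overlap. The brightest probe set of Adar differed by -0.0076 and the remaining one by -0.11, both with overlap. Of the values given, the lowest of Ago3 and of Tnrc6b were those of cKO replicate 3.

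Genes of the hippocampal neurons, in which the recombinase is active, were centred near 0. Of 15 markers of excitatory neurons, 11 were measured, with a median difference of -0.06 (4 higher, 7 lower), and 0 of them were at an unadjusted p under 0.05. The medians for CA1, CA2 and CA3 pyramidal neurons, dentate granule neurons and mossy cells were -0.01, 0.03, -0.05, -0.04 and -0.06, over 9, 8, 10, 12 and 8 measured genes. In bulk tissue, fewer cells of a type and less RNA per cell cannot be told apart. Rnf182, a ubiquitin ligase gene on the CA3 list, was at 7.92, 7.64 and 7.06 against 7.93, 8.09 and 8.14 (-0.51), and Pdzd2, on the dentate list, was at 4.67, 4.45 and 4.08 against 4.59, 4.70 and 5.28 (-0.46). Both had their lowest value on cKO replicate 3.

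Interneuron genes, which are outside the cells of the recombinase, had a median difference of 0.05 over 17 measured genes, 12 higher and 5 lower. Vip, a neuropeptide of interneurons, was at 7.79, 7.98 and 7.76 against 7.89, 6.63 and 6.90 (0.71, SE 0.29, adjusted p = 0.772). The cKO arrays were even, and control replicate 1 was as high as they were. Npy was at 9.13, 9.51 and 8.58 against 9.38, 8.40 and 7.90 (0.51), and Sst at 10.42, 10.72 and 10.26 against 10.72, 10.15 and 9.56 (0.33). For the 3 peptides control replicate 1 was the highest control array and the groups overlapped. For receptors, 28 genes of glutamate receptors and AMPA receptor partners had a median of -0.07 (11 higher, 17 lower) and 9 GABA-A receptor subunit genes a median of -0.10 (1 higher, 8 lower). The exception among the latter was Gabrd, the subunit of tonic inhibition in granule neurons, at 5.26, 5.88 and 5.37 against 5.27, 4.93 and 4.38 (0.64). The 24 measured immediate early genes, which neuronal activity induces, had a median of -0.07 with 8 higher and 16 lower.

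Adult neurogenesis in the dentate gyrus was represented by 15 measured genes with a median of -0.10 (6 higher, 9 lower). Dcx, the microtubule protein of newborn neurons, was at 6.05, 5.42 and 5.03 against 5.86, 6.05 and 6.14 (-0.52, SE 0.21, adjusted p = 0.772). Sox4, a transcription factor of immature neurons, was at 7.13, 6.83 and 6.33 against 7.25, 7.06 and 7.23 (-0.42). In both genes cKO replicate 1 lay within the control range and cKO replicate 3 was the lowest. Among the cyclin and kinase inhibitor genes, 19 were measured with a median of -0.07, and Cdkn1c was the one with the lowest p.

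Astrocyte genes were centred at -0.04 (17 measured, 7 higher and 10 lower), but the 4 at an unadjusted p under 0.05 were all lower and without overlap, where 4.25% of all genes were at such a p and 4.94% without overlap on this side. Gfap, the intermediate filament of astrocytes, was at 8.46, 8.45 and 7.85 against 8.66, 9.20 and 8.93 (-0.67, SE 0.23, adjusted p = 0.772), and its 3 probe sets were all lower without overlap. Aqp4, the water channel of astrocyte endfeet, was at 8.93, 8.71 and 7.97 against 8.96, 9.43 and 9.17 (-0.65, SE 0.20, adjusted p = 0.772), but its brightest probe set differed by -0.04 and the remaining one by -0.03, both with overlap. Slc1a2, the main glutamate transporter, was at 8.03, 7.88 and 6.50 against 8.29, 8.23 and 8.14 (-0.75), and its brightest probe set differed by -0.07 with overlap. In Aqp4 and Slc1a2 the first cKO array was near the controls and cKO replicate 3 accounted for much of the difference. The other was Sox9. Of 18 measured reactive glia genes 16 were lower, with a median of -0.14. Their median deviations were -0.0082, -0.02 and -0.08 on the cKO arrays and 0.12, 0.12 and 0.10 on the control arrays, and these did not overlap. The same was found for 4 of the other lists, namely pericytes and smooth muscle, adult neurogenesis and miRNA targets on the lower side and neocortical layers on the higher side. Of the 35 lists, 4 were thus lower and 1 higher without overlap, and 30 overlapped. Single genes did not overlap in 4.94% of cases on the lower and 5.11% on the higher side. For the reactive glia list, leaving out any 1 of the 6 arrays gave medians between -0.19 and -0.12. Without cKO replicate 3 and control replicate 2 its median was -0.14. At an unadjusted p under 0.05 were 3 lower members, Cp, Cd44 and Osmr, and 1 higher member, S1pr3, where all genes had 4.25% and 2.09%. S1pr3, a receptor of sphingosine 1-phosphate, was at 6.02, 6.02 and 5.57 against 5.48, 5.68 and 5.41 (0.34, SE 0.14) with overlap, and its brightest probe set differed by -0.11. Lower were the adhesion receptor gene Cd44 at 4.55, 4.50 and 4.25 against 5.20, 4.77 and 4.89 (-0.52) and the cytokine receptor gene Osmr at 5.69, 5.42 and 5.42 against 5.96, 5.83 and 5.81 (-0.36). In both genes the groups did not overlap and the 3 cKO arrays lay close together. Oligodendrocyte and myelin genes had a median of -0.01 (15 measured) and oligodendrocyte precursor genes of -0.04 (9 measured).

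Microglia genes had a median difference of -0.36, and 20 of the 21 measured were lower in the cKO. This rested on 1 control array. Control replicate 2 had the highest value of the 6 arrays for 20 of the 21 genes, and without it the median was -0.02 (7 higher, 14 lower). C1qa, a complement component of microglia, was at 9.09, 9.34 and 8.97 against 9.15, 10.48 and 9.36. Cd68, a lysosomal protein of phagocytes, was at 6.16, 6.47 and 6.34 against 6.56, 7.71 and 6.47. In both genes the other control arrays lay close to the cKO arrays. Ptprc, the leukocyte antigen CD45, was at 5.55, 5.55 and 5.56 against 6.07, 6.80 and 5.62 (-0.61) and was the single member without overlap. A count of 1 in 21 is near the 4.94% of all genes that were lower without overlap. Cx3cr1, the fractalkine receptor of microglia, was at 7.22, 6.97 and 6.92 against 7.31, 7.75 and 7.17 (-0.37).

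Interferon and antigen presentation genes behaved likewise, with a median of -0.42 and all 22 measured genes lower. Control replicate 2 was the highest of the 6 arrays for 19 of them, and without it the median was -0.10. Usp18, an interferon-induced deubiquitinase, was at 4.47, 5.09 and 4.44 against 4.75, 7.50 and 5.35 (-1.20, SE 0.63). Psmb8, a subunit of the immunoproteasome, was at 6.15, 6.44 and 6.48 against 6.25, 7.69 and 6.91 (-0.59). The high value was in both genes that of control replicate 2. Stat2, a transcription factor of the interferon response, was at 4.71, 4.77 and 4.93 against 5.06, 4.9995 and 5.16 (-0.27) and was the 1 member whose groups did not overlap. This 1 of 22 is also near the 4.94% of all genes.

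The clearest shift of a list away from 0 was found for the leptomeninges, the fibroblast-rich membranes on the brain surface. Of 40 genes, 38 were measured and all 38 were lower in the cKO, with a median of -0.48 against 0.0021 over all genes, and 25 were at an unadjusted p under 0.05, where 4.25% of all genes were. The arrays nevertheless overlapped, and the list was chosen with earlier results of these data known. The median deviations of the list were -0.23, 0.25 and -0.56 on the cKO arrays and 0.52, 0.0045 and 0.47 on the control arrays, so that cKO replicate 2 lay above control replicate 2. For 33 of the 38 genes the lowest value was that of cKO replicate 3, and the highest was that of control replicate 1 for 20 and of control replicate 3 for 14.

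Slc13a4, a sulfate transporter of the meninges, was at 7.43, 7.89 and 7.17 against 8.53, 7.89 and 8.10 (-0.67, SE 0.19, adjusted p = 0.772). Islr, an immunoglobulin and leucine-rich repeat protein of fibroblasts, was at 6.70, 7.46 and 6.14 against 8.01, 7.23 and 8.06 (-1.002). Mgp, a matrix protein that inhibits calcification, was at 8.85, 9.49 and 8.49 against 9.72, 9.38 and 9.94 (-0.74). In Islr and Mgp cKO replicate 2 was above control replicate 2. Cdh1, the epithelial cadherin of the arachnoid barrier, was at 3.81, 4.53 and 3.55 against 5.48, 4.27 and 5.69 (-1.18), and Igf2, the growth factor that meninges and choroid plexus secrete, was at 8.98, 9.54 and 8.26 against 10.02, 9.38 and 9.54 (-0.72). The 4 members without overlap were Bmp7 (-0.49), Slc13a3 (-0.30), Slc22a8 (-0.23) and Col6a2 (-0.21), and of these the last 3 were closer to 0 than the median of the list. These are 4 of 38 measured genes, where 4.94% of all genes were lower without overlap. Over 24 alternatives the difference of Bmp7 lay between -0.63 and -0.02.

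The size of this shift depended on single arrays. Without cKO replicate 3 the median was -0.28 and 6 of the 38 genes were at an unadjusted p under 0.05. Without control replicate 1 there were 7 and without control replicate 3 there were 10, with medians of -0.38 and -0.47. Without cKO replicate 1 there were 13 (median -0.51). In the other direction, the median was -0.72 with 34 genes without cKO replicate 2, and -0.63 with 30 genes without control replicate 2. The median stayed below 0 in all of these. With limma on the 6 arrays alone there were 13 genes, and the methods' t-test had 0 of the 38 at an unadjusted p under 0.05. The amount of membrane carried along with a dissected hippocampus was not recorded in the sources used here, and its part in the result was not tested.

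Genes of ependymal cells and motile cilia pointed the other way. Of 30 genes 19 were measured, 16 higher and 3 lower in the cKO, with a median of 0.20. For 6 of them the groups did not overlap on the higher side and for 0 on the lower side (5.11% and 4.94% of all genes), and 5 were at an unadjusted p under 0.05, where 2.09% of all genes were. The median deviations of the list were -0.04, 0.08 and 0.25 on the cKO arrays and -0.04, -0.07 and -0.24 on the control arrays. The separation thus came from cKO replicates 2 and 3 and from a low control replicate 3, and cKO replicate 1 lay next to control replicate 1.

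Ak7, an adenylate kinase of motile cilia, was at 6.32, 6.17 and 6.62 against 5.95, 5.93 and 5.97 (0.42, SE 0.11, adjusted p = 0.772). Here the groups were clearly separate. Odf3b was at 6.35, 6.74 and 6.56 against 6.25, 6.33 and 5.84 (0.41), and Pifo, a gene of ciliary disassembly, was at 5.23, 5.81 and 6.03 against 5.46, 5.16 and 5.16 (0.43) with overlap. Drc3, which is in no list, was at 6.69, 6.79 and 7.09 against 6.39, 6.47 and 6.42. Foxj1, the transcription factor that switches on the motile cilia programme and was added here after its value was seen, differed by 0.04 (95% interval -0.15 to 0.23). Without cKO replicate 3 the list's median was 0.14 with 2 genes at an unadjusted p under 0.05, without control replicate 3 it was 0.17 with 2 genes, and without cKO replicate 1 it was 0.29 with 8 genes. The choroid plexus list had a median of -0.02 (12 measured, 3 higher and 9 lower), and Ttr, its most abundant product, was at 7.47, 8.16 and 8.17 against 7.65, 7.66 and 9.23.

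**Figure D4:**
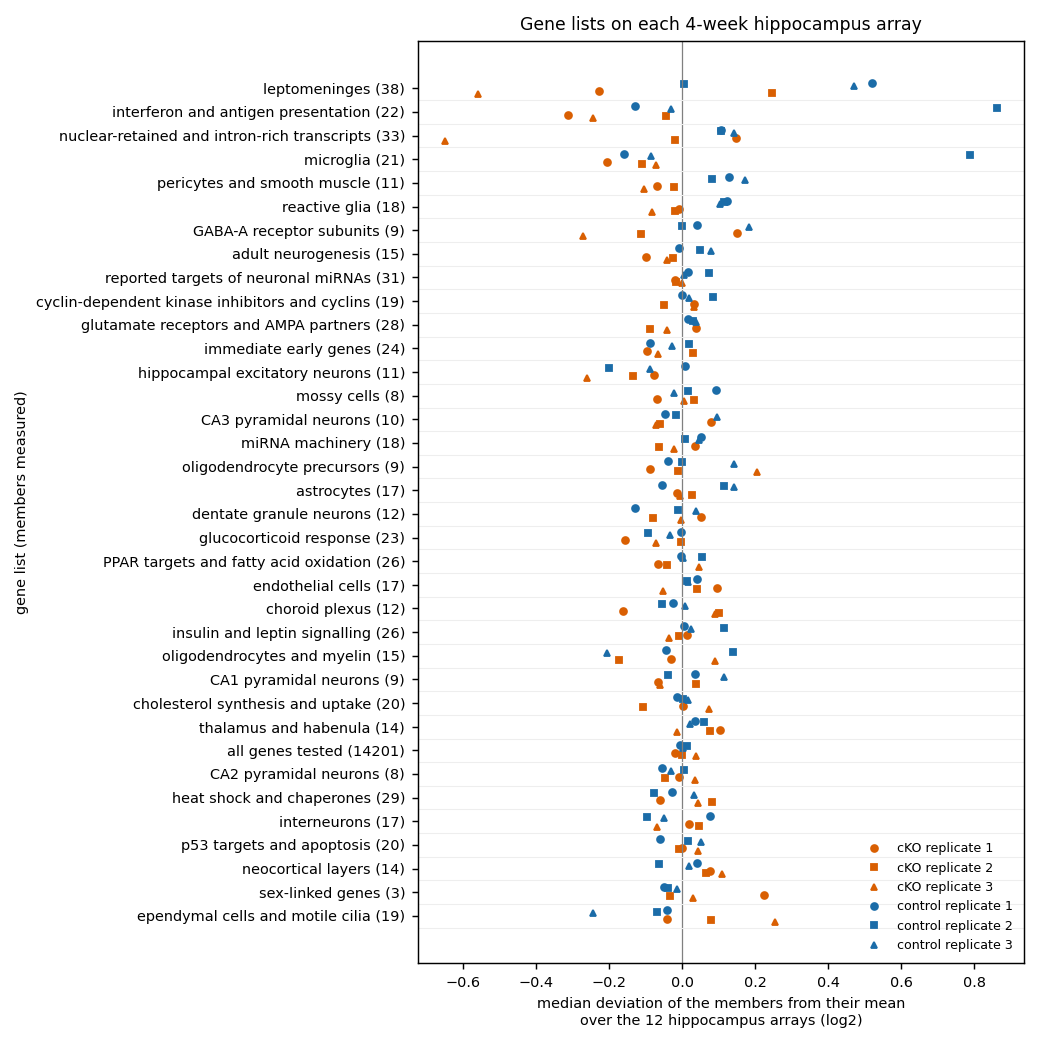
For each gene list and for all genes tested, the median deviation of the measured members from their mean over the 12 hippocampus arrays, in log2 units, on each of the 6 arrays at 4 weeks; lists are ordered by the median of their differences. Control replicate 2 is high for microglia (0.79) and interferon genes (0.86), cKO replicate 3 is low for the leptomeninges (-0.56) and nuclear-retained transcripts (-0.65), and most other lists stay close to 0.

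Nuclear-retained and intron-rich transcripts, listed as a check on the RNA preparation, had a median of -0.36 over 33 measured genes, 7 higher and 26 lower, with 1 higher and 8 lower without overlap (5.11% and 4.94% of all genes). The list was lowest on cKO replicate 3 for 24 of the 33 genes. Nktr was at 5.07, 4.44 and 4.01 against 5.29, 5.41 and 5.67 (-0.95). Macf1 was at 7.02, 6.53 and 6.12 against 7.18, 7.08 and 7.08 (-0.56). Rufy2 was at 5.12, 5.31 and 4.32 against 5.78, 5.68 and 5.41 (-0.71), and the long noncoding RNA Snhg11 at 11.17, 11.08 and 10.69 against 11.41, 11.30 and 11.32 (-0.37). Without cKO replicate 3 the median was -0.09 and 2 genes were lower at an unadjusted p under 0.05, and with the brightest probe set of each gene it was 0.04. The drop on this array moves with the large differences of Zfp800, Heatr6, Krit1 and Gad2 given above, and its part in them was not tested.

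The metabolic and stress lists were close to the median of all genes. Targets of PPAR and genes of fatty acid oxidation had a median of -0.03 (26 measured, 8 higher and 18 lower), next to the -0.64 of Ppara itself. Cholesterol genes had a median of -0.01 (20 measured), with Stard4, a sterol carrier, at 7.57, 7.40 and 7.11 against 7.72, 7.77 and 7.94 (-0.45, SE 0.11, adjusted p = 0.772). Insulin and leptin signalling genes had a median of -0.02 (26 measured), with Irs2, an insulin receptor substrate, at 8.08, 7.91 and 7.93 against 8.19, 8.45 and 8.21 (-0.31) and the phosphatase gene Ptpn1 at 8.05, 8.08 and 8.10 against 8.19, 8.37 and 8.43 (-0.25). In these 3 genes the cKO arrays were all lower. Glucocorticoid response genes had a median of -0.04 (23 measured), p53 targets of 0.06 (20 measured), and heat shock proteins and chaperones of 0.03 (29 measured, 20 higher and 9 lower). Within the last list, Dnaja1 was at 9.97, 9.81 and 9.95 against 9.76, 9.59 and 9.52 (0.29) and Hsp90aa1 at 12.22, 12.06 and 11.49 against 12.35, 12.30 and 12.29 (-0.39). Endothelial genes had a median of -0.03 (17 measured), pericyte and smooth muscle genes of -0.18 (11 measured, among them Vtn at -0.26), thalamus and habenula genes of 0.0002 (14 measured), neocortical layer genes of 0.09 (14 measured) and sex-linked genes of 0.15 (3 measured).

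To ask whether the differences at 4 weeks were also found later, they were compared with those of the 6 hippocampus arrays taken at 8 weeks, which come from other cKO and control samples normalized together with these. The interaction of time and treatment was called for 0 of 14201 genes at an FDR of 15% by limma (0%), with a lowest adjusted p of 0.559. At an unadjusted p under 0.05 there were 1141 genes, of which 696 (4.9%) had a difference lower at 4 than at 8 weeks and 445 (3.13%) higher. Leaving out cKO replicate 1 of the 4-week group gave 212 called genes, the largest number in any setting that left out 1 array. Across genes, which are not independent, the sign was the same at both times for 46.3% of all genes (r = -0.22), for 48.2% of the 297 higher genes and for 29.4% of the 603 lower genes. Of the 8-week arrays, cKO replicate 1 stood apart with a median deviation of 1.36 for excitatory neuron genes, against -0.13 to -0.05 on the other 5, and control replicate 3 with 0.65 for interferon genes, against -0.39 to 0.02. Without both, which was tried after seeing the data, the interaction was again called for 0 genes and the sign was the same for 49.97% of all genes, 56.2% of the higher and 36.7% of the lower genes.

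The genes with the lowest interaction p had differences of opposite sign at the 2 times. Ttll3, a tubulin glycylase of cilia, was at 5.96, 5.96 and 5.67 against 6.31, 6.10 and 6.55 at 4 weeks (-0.46) and differed by 0.64 at 8 weeks. Medag was at 5.40, 5.39 and 5.32 against 5.09, 5.11 and 5.11 (0.26) and differed by -0.35 at 8 weeks. Both had non-overlapping groups at 4 weeks. Zfp266 differed by -0.54 and 0.29, Lifr by 0.14 and -0.43, and Krt222 by 0.16 and -0.44. Of the lists, the leptomeninges had a median of 0.01 at 8 weeks (21 higher, 17 lower) and the nuclear-retained transcripts of 0.14 (29 higher, 4 lower), whereas the ependymal genes had a median of 0.12 with 16 higher and 3 lower. Without both 8-week arrays that stand apart these medians were 0.10, 0.16 and 0.17. Ak7 differed by 0.51 and Calml4 by 0.98 at 8 weeks, next to 0.42 and 0.83 at 4 weeks. The control values of Calml4 at 4 weeks were all below the filter of 4.6. Cdkn1c differed by -0.09 and Cp by 0.25 at 8 weeks.

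The same contrast at 4 weeks in the cortex, on 6 arrays that were normalized separately, served to ask which differences were particular to the hippocampus. The labels of these arrays carry other sample numbers than those of the hippocampus, so that they were taken to be of other animals. Tissue and animals cannot be told apart in this comparison. Of 12586 genes, the cKO minus control difference of 113 was lower in the hippocampus than in the cortex (0.898%) and that of 8 was higher (0.0636%) at an FDR of 15%. Over all of these genes the differences in the cortex were mostly above 0, with a median of 0.11. Of the 113 genes, 110 were lower in the hippocampus and higher in the cortex of cKO mice, and 21 were leptomeninges genes. Most genes at an unadjusted p under 0.05 in the hippocampus nevertheless had the same sign in the cortex. This held for 73.0% of the 233 higher and 67.5% of the 532 lower genes that were also measured there. Over all 12586 genes, which are not independent, it held for 55.0% (r = 0.33). Of all 12586 genes, however, 8685 were higher and 3901 lower in the cKO cortex. The 73.0% of the higher genes is thus near the share of all genes that were higher there, while the 67.5% of the lower genes is above the share that were lower. In the cortex the leptomeninges list had a median of 0.63 and 37 of 37 measured genes were higher. The ependymal list had a median of 0.20 with 15 higher and 3 lower, next to 0.20 in the hippocampus. The median of all genes was 0.11 in the cortex and 0.0021 in the hippocampus, so that the list stood out less in the cortex. Nuclear-retained transcripts were lower in both tissues, with a median of -0.36 in the hippocampus and -0.46 in the cortex (10 higher, 22 lower). These lists were chosen with earlier results of these data known, so their counts are not an independent test.

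Slc13a4 differed by -0.67 in the hippocampus and 0.77 in the cortex (difference of differences -1.44, SE 0.23, limma adjusted p = 0.0235). Bgn, the matrix proteoglycan biglycan, differed by -0.33 and 0.78 (-1.11, SE 0.18, adjusted p = 0.0235), and Anxa1, the phospholipid-binding annexin A1, by -0.45 and 1.02 (-1.47, SE 0.25). For Perp, a p53 target of cell junctions, the hippocampus itself was flat (-0.01) and the cortex differed by 0.88, and for Agpat2, an enzyme of phosphatidic acid synthesis, the values were -0.22 and 0.63. The hippocampal part of these contrasts did not pass the threshold on its own for any of the 5 genes.

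The number called against the cortex depended on single arrays in both tissues. It was 54, 143 and 164 without hippocampal cKO replicate 1, 2 or 3 and 110, 70 and 43 without hippocampal control replicate 1, 2 or 3. It was 58, 16 and 1219 without cortical cKO replicate 1, 2 or 3, and 10, 23 and 2491 without cortical control replicate 1, 2 or 3. The number of leptomeninges genes among those called lower ranged from 4 to 33 over these settings. It was 4 without cortical cKO replicate 2 or cortical control replicate 1, and 33 without cortical control replicate 3.

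**Figure D5:**
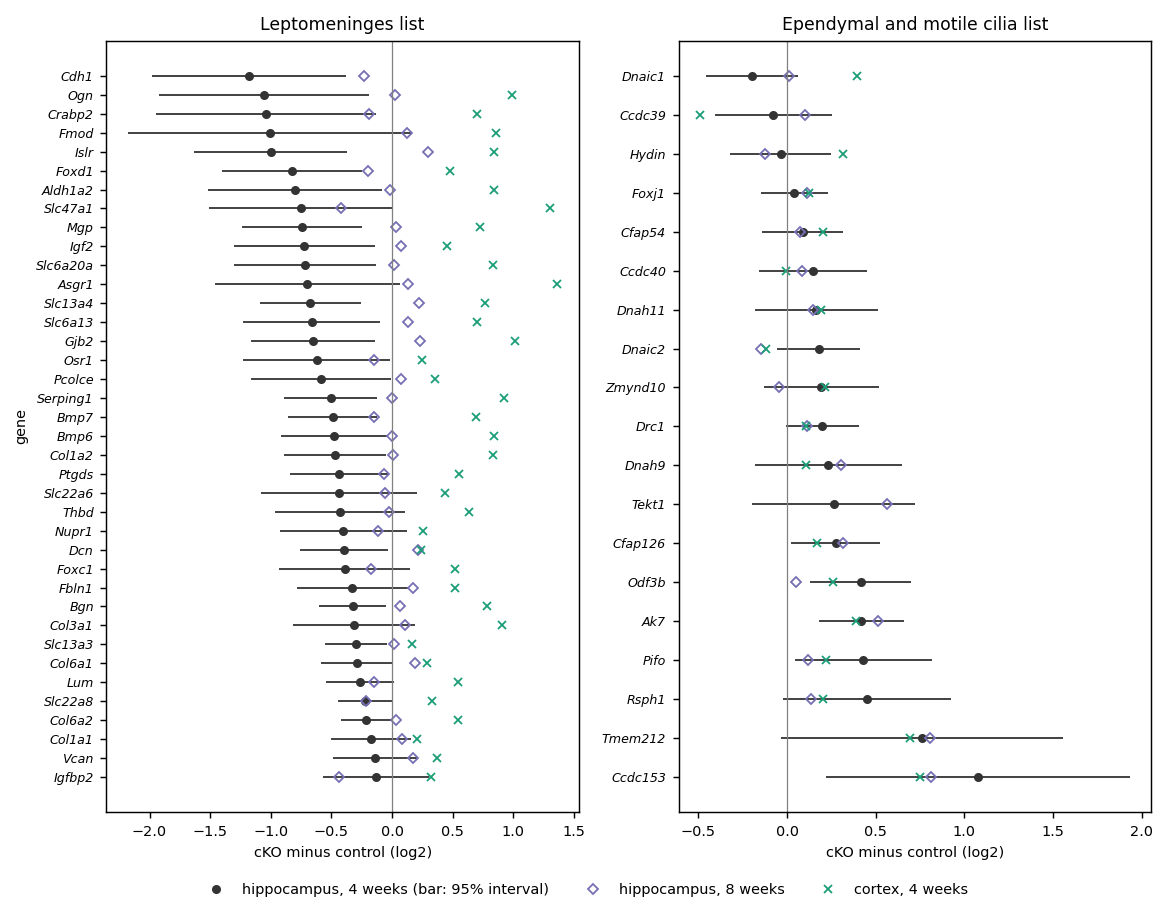
The cKO minus control difference in log2 units of each measured gene of the leptomeninges list (left) and the ependymal and motile cilia list (right), with filled circles and 95% intervals for the hippocampus at 4 weeks, open diamonds for the hippocampus at 8 weeks and crosses for the cortex at 4 weeks. The leptomeninges genes are below 0 in the hippocampus at 4 weeks (median -0.48), around 0 at 8 weeks (0.01) and above 0 in the cortex (0.63), while the ependymal medians are 0.20, 0.12 and 0.20. The medians of all genes tested are 0.0021, -0.02 and 0.11.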

How the data were processed

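The values are log2 intensities deposited by the authors, who hybridized RNA to Affymetrix mouse genome arrays and ran RMA in Expression Console, tissue by tissue (no source used here names the version). They were used as deposited, and present calls were not used here. Of 45101 probe sets, 34958 are annotated to 1 gene and 932 to several. A single-gene probe set was kept if 3 of the 12 hippocampus arrays reached 4.6 (25763 passed), and the most variable one stood for its gene. One limma 3.58.1 model (R 4.3.3) of 4 groups gave differences, standard errors, 95% intervals and Benjamini-Hochberg adjusted p-values, called at an FDR of 15% after the methods. The pipeline was tested on simulated data. The tissue contrast used 24 arrays in 8 groups. Precision is limited by 3 arrays a group.

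Named genes are Dicer1, Camk2a, the 12 of lowest p and 6 of largest non-overlapping difference per direction, up to 4 of lowest p per list, and 5 of each further contrast. Others are said to be chosen by value or, where a count of 5 or fewer is given, were named after it. The members and the 35 gene lists (626 of 737 symbols measured) were chosen with earlier results of these data known. No list was tested. Alternatives changed filter, probe set, scaling, variance model, arrays and test.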

Additional observations from a re-analysis of the deposited data

Results flagged for a closer look

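The difference between hippocampus and cortex in their cKO minus control differences at 4 weeks passed the test for 121 genes. These results are listed since the test of the difference between the tissues called them, while the tissues were normalized separately and, by the sample numbers in the labels, do not share animals. Of the genes named above, the difference of differences in log2 units was -1.84 for Islr, -1.47 for Anxa1, -1.47 for Bmp4, -1.46 for Mgp, -1.44 for Slc13a4, -1.25 for Gfap and -1.11 for Bgn. It was -0.89 for Perp, -0.89 for Osmr, -0.87 for Crispld2, -0.85 for Agpat2, -1.18 for Bmp7, -0.76 for Col6a2, -0.69 for Cdkn1c and -0.61 for Vtn. For all of these genes the difference was lower in the hippocampus than in the cortex. Cdkn1c and Crispld2 were also the genes of lowest p within the hippocampus, whereas Perp owed its place to the cortex. Bmp4, a bone morphogenetic protein on the oligodendrocyte precursor list, was at 5.32, 6.04 and 5.60 in the cKO and 6.53, 5.87 and 6.33 in the control hippocampus (-0.59).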

How the results depend on the processing

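The count of 0 genes called at 4 weeks was the same under 25 of 26 alternatives (filter, probe set, scaling, variance model, FDR of 5% or 25%, left-out arrays). Leave-one-out counts ranged from 0 to 2. The count of 0 for the interaction with time ranged from 0 to 212 when 1 array was left out. The 121 genes against the cortex became 73 with a filter of 6 and 4893 with array weights, and ranged from 10 to 2491 when 1 array was left out. The cause was not tested. The difference of the brighter Dicer1 probe set became -0.000435 with array weights, and leaving out 1 array gave 0.01 to 0.09.

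Samples with the same replicate number did not deviate together at 4 weeks (r of 0.0497, -0.025 and -0.00712), so the numbers were not taken as pairs. With the replicate number as a block, 0 genes were called and 888 were at an unadjusted p under 0.05.

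Single genes changed sign mainly with the probe set. With the brightest one, the differences were 0.043 for Dicer1, 0.076 for Camk2a, 0.0012 for Zfp266, 0.20 for Minar1, 0.036 for Atic, 0.013 for Ccny, 0.029 for Mtss1, -0.017 for Muc20, 0.058 for Tnrc6b, 0.072 for Nktr, 0.13 for Macf1, 0.019 for Snhg11, -0.11 for S1pr3 and 0.027 for Sox4. With the median of a gene's probe sets they were 0.12 for Camk2a, 0.00093 for Minar1, 0.11 for Ccny, -0.028 for Drosha, -0.12 for Lypla1 and 0.037 for Macf1. With a filter of 6 they were 0.20 for Minar1, 0.0097 for Mtss1, -0.11 for S1pr3 and -0.12 for Lypla1, and without a filter -0.21 for Dbil5 and 0.13 for Lamc1. Perp changed sign with centring (0.041), quantile normalization (0.022), array weights (0.043) and without both arrays that stand apart (0.025), and it ranged from -0.070 to 0.080 when 1 array was left out. Other genes kept their sign but differed by much less in at least 1 alternative, among them Bmp7 (-0.02), Pdzd2 (-0.01), Hsp90aa1 (-0.02), Jag1 (-0.03), Sox9 (-0.05) and Dcx (-0.07). Low signal limits both sides, since all 12 higher genes of lowest p and 8 of the 12 lower ones had intensities below the median. Most of the 12 higher genes are read by 1 probe set.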
